A study of Mus musculus with 4 samples.

Results

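The genes described here are 10 members of the fibroblast growth factor (FGF) family that were chosen by name: the ligand genes Fgf1, Fgf2, Fgf7, Fgf9, Fgf10 and Fgf18, the receptor kinase genes Fgfr1, Fgfr2 and Fgfr3, and Fgfrl1, which encodes a receptor without a kinase domain. All 10 were found among the 23350 gene entries that the deposited tables for both ages hold. Transcript levels were measured by RNA sequencing of Achilles tendon from male mice homozygous for Scx-EGFP, a transgene that makes cells expressing the tendon transcription factor Scx fluoresce, on a C57BL/6 background, and all 4 groups carry it. The 4 groups were sham operation and tenotomy (cutting the tendon) in neonates of 7 days and in adults of 6 months, with RNA taken 5 days after the operation. Sham surgery was on the left hindlimb and tenotomy on the right, and after tenotomy the distal stump was collected free of surrounding connective tissue. Each library came from 1 pool of RNA, which held 11 mice for both neonatal operations, 5 for adult sham and 9 for adult tenotomy. The labels of the tenotomy pools also call the tendon uninjured, and the pools are named here by the operation. No difference between animals was measured, so that no comparison below has a replicate check.

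FGF ligands bind receptor tyrosine kinases together with heparan sulfate chains of the cell surface and matrix, and the activated receptors signal mainly through the Ras-MAPK and PI3K-Akt pathways. Alternative splicing of the receptor's ligand-binding domain sets which ligands it takes: Fgf7 and Fgf10 act on the epithelial form of Fgfr2, whereas Fgf9 and Fgf18 act on the mesenchymal forms of the receptors. In mouse and chick embryos, FGF signals from the neighbouring muscle precursors induce Scx in tendon progenitors. The gene totals here do not separate the splice forms.

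The values are FPKM (fragments per kilobase of transcript, scaled to the size of the library). The steps between low FPKM values gave about 2680000 fragments for the 7-day sham library, 3260000 for 7-day tenotomy, 1780000 for 6-month sham and 2410000 for 6-month tenotomy, so that a transcript of 2 kb at 5 FPKM rested on about 16 to 29.3 fragments. All 8 tendon markers examined, Scx and Tnmd among them, reached 5 FPKM; after tenotomy 1 was at least 2-fold higher and 2 lower at 7 days, and 6 were lower at 6 months (summed FPKM 1717 and 1547 at 7 days and 3641 and 782 at 6 months, sham before tenotomy). All 7 Schwann cell and nerve markers stayed below 5 FPKM in every library. Summed FPKM of 10 skeletal muscle markers was 16249 in 7-day sham, 33.7 in 7-day tenotomy, 35859 in 6-month sham and 11078 in 6-month tenotomy, and all 10 were at least 2-fold lower after tenotomy at both ages. In such pooled tissue, fewer cells of a type and less RNA per cell cannot be told apart.

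The sequences just upstream of 4 members show how base composition differs within pairs of members whose 7-day values lay on opposite sides of sham: the receptor genes Fgfr2 and Fgfrl1, and the ligand genes Fgf18 and Fgf9. Of these pairs, Fgf18 and Fgf9 were both below sham at 6 months and were called at neither age. Fgfr2 and Fgfrl1 were called at 6 months but not at 7 days. Each sequence is the 250 bases before the RefSeq transcription start (GRCm38.p6), 5′ to 3′ on the gene's strand. That start is also the edge of the locus in the deposited tables for these 4 genes. GENCODE places the start of Fgf18 at the same base. It starts Fgfr2 (133123350), Fgfrl1 (108692382) and Fgf9 (58070547) farther upstream, so that those windows lie inside the GENCODE gene. They lie at chr7:130266809-130267058 (minus strand) for Fgfr2, chr5:108693979-108694228 (plus strand) for Fgfrl1, chr11:33147401-33147650 (minus strand) for Fgf18 and chr14:58072436-58072685 (plus strand) for Fgf9. Capitals mark every match, on either strand, to 5 short motifs that were chosen after the values were known.
Fgfr2: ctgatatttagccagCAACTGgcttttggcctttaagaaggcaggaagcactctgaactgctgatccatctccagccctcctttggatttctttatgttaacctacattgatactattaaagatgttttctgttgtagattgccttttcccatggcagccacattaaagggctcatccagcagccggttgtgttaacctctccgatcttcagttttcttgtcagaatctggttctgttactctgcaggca
Fgfrl1: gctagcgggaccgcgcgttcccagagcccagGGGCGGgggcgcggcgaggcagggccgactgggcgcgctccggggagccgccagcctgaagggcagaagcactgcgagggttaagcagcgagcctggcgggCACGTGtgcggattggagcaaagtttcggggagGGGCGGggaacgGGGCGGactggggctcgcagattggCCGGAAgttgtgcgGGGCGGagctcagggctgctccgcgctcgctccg
Fgf18: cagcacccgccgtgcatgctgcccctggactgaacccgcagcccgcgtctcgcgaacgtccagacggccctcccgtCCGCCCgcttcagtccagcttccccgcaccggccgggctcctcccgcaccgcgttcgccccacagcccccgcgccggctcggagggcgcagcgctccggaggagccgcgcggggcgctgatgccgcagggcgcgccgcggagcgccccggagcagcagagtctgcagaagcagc
Fgf9: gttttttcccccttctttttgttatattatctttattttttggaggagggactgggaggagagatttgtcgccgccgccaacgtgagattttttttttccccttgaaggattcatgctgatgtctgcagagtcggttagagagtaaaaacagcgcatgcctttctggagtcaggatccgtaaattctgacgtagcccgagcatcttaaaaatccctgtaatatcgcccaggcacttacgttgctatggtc

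The motifs were the E-box CANNTG, a core bound by Scx and other bHLH factors, the GC box GGGCGG bound by Sp1, the TATA box written as TATAAA, the AP-1 core TGANTCA and the ETS core CCGGAA. Fgfrl1 held 4 GC boxes, 1 E-box and 1 ETS core, Fgf18 held 1 GC box, Fgfr2 held 1 E-box, and no match was found in the Fgf9 window. No marked match overlaps another in these windows. A GC box occurred in 32.7% of 32851 windows of this length in the same table, an E-box in 66.2%, the ETS core in 12%, TATAAA in 12.4% and the AP-1 core in 6.75%. The GC content was 77.2% for Fgf18 and 73.6% for Fgfrl1, against 44.0% for Fgfr2 and 44.8% for Fgf9. Fgf18 and Fgfrl1 thus lay at percentiles 97.6 and 95.1 of all windows, and Fgfr2 and Fgf9 at percentiles 22.1 and 24.5. In the Fgf18 and Fgf9 pair the GC-richer window belonged to the gene above sham at 7 days. In the Fgfr2 and Fgfrl1 pair it belonged to the gene below sham. These matches describe letters only; no binding was measured. Of the 10 members, 8 were matched in the table of RefSeq upstream sequences.

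Receptor transcripts were dominated by Fgfr1 in every library, and every ligand stayed below it, the highest being Fgf1 at 11.7 FPKM in 6-month sham. The ligand that led the order was Fgf1 in both sham libraries, Fgf18 in the 7-day stump and Fgf7 in the 6-month stump. By the fold rule used here, 1 member was called at 7 days (Fgf1, lower) and 3 at 6 months (Fgf1 and Fgfrl1, lower, and Fgfr2, higher).

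**Figure D1:**
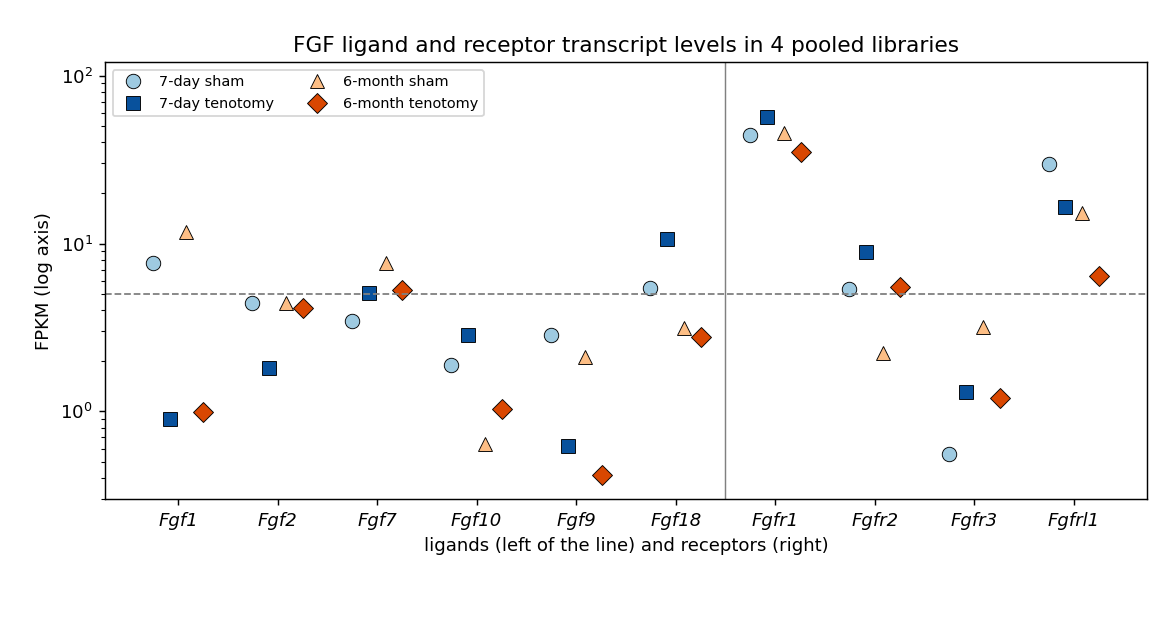
FPKM of the 10 genes (log axis) in the 4 pooled libraries, ligands left of the vertical line and receptors right; each point is 1 library and the dashed line marks 5 FPKM. Fgfr1 stands between 35.1 and 56.8 FPKM, and Fgf1 drops from 7.66 and 11.7 FPKM after sham to below 1 FPKM after tenotomy.

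A gene was called higher or lower when log2((tenotomy FPKM + 1)/(sham FPKM + 1)) was at least 1 in size and the gene reached 5 FPKM in either library; folds are on this scale, which understates differences of low genes, unless named as plain FPKM ratios. At 7 days 6 of the 10 members reached 5 FPKM, of which none was called higher and 1 lower; over all genes 5.55% of 9424 were called higher and 10.3% lower. At 6 months 5 reached it, of which 1 was higher and 2 lower, beside 9.62% and 11.9% of 9001 genes. The median log2 ratio over all 10 members was 0.39 at 7 days and -0.40 at 6 months, against medians of 0.01 and -0.03 over all genes at the floor. Fgf2, Fgf9, Fgf10 and Fgfr3 stayed under 5 FPKM in every library and could not be called. In the authors' deposited tables no member was called significant, where 90 genes were called in all at 7 days and 0 at 6 months. The authors' status left 4 members untested at 7 days and 5 at 6 months. The lowest q-value of a member was 0.656 at 7 days and 0.814 at 6 months, both of Fgf1.

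Counting error was worked out from the approximate fragments behind each value, taking the longest coding transcript in GENCODE M21; a shorter transcript gives fewer fragments and a wider interval. The 95% interval of the plain FPKM ratio (exact Clopper-Pearson, counting error only) excluded 1 for 2 members on the higher side and 4 on the lower side at 7 days, where 18.4% and 19.2% of 14172 genes did. At 6 months it excluded 1 for 1 member on the higher side and 5 on the lower side, beside 17.9% and 19.5% of 13664 genes. With the shortest coding transcript of at least 800 bases, 4 members remained at each age, Fgf1, Fgfr1, Fgfr2 and Fgfrl1. The share over all genes was not worked out for that length.

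**Figure D2:**
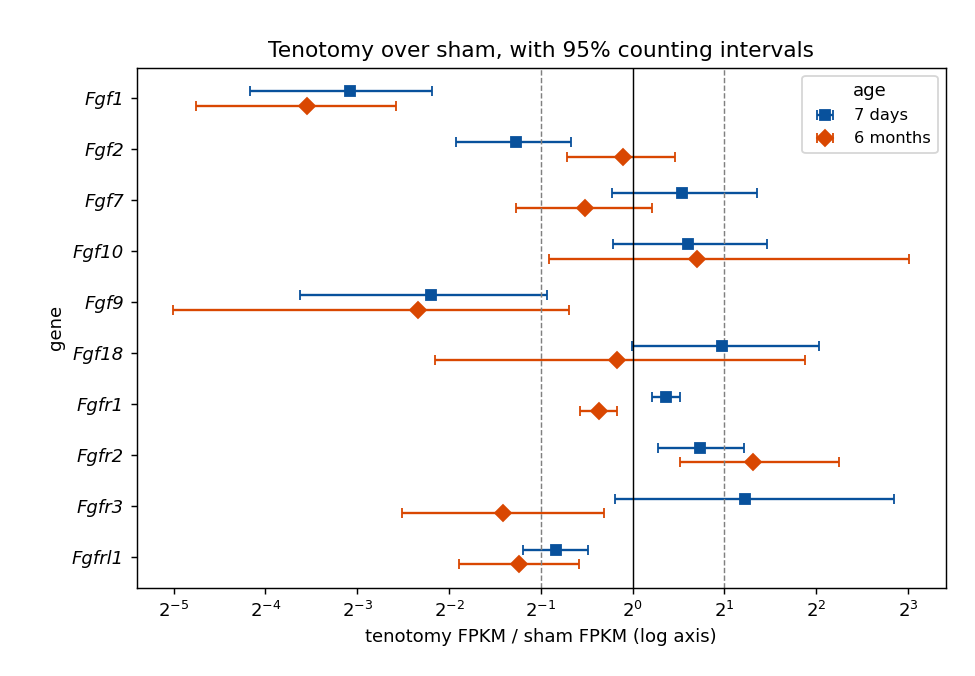
Plain ratio of tenotomy FPKM to sham FPKM (log axis) for the 10 genes at 7 days (blue squares) and 6 months (orange diamonds); bars are 95% intervals that cover counting error only, and dashed lines mark 2-fold. Fgf1 and Fgf9 lie far left at both ages, Fgfr2 right at both, and Fgfr1 on opposite sides of 1 with ratios of 1.29 and 0.774.

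Fgf1, a ligand that binds all FGF receptors and lacks a secretion signal, differed most between operations. It stood at 7.66 FPKM in 7-day sham, 0.904 in 7-day tenotomy, 11.7 in 6-month sham and 0.999 in 6-month tenotomy. Both sham libraries were thus above both tenotomy libraries, which were nearly level with each other. It was 4.55-fold lower after tenotomy at 7 days (log2 ratio -2.18) and 6.34-fold lower at 6 months (-2.67). In plain terms the 7-day ratio was 0.118 (95% counting interval 0.0556 to 0.219, from about 78 and 11 fragments). The 6-month ratio was 0.0855 (0.0371 to 0.168, from about 79 and 9 fragments). The muscle markers given above were lower in the same libraries; Acta1, the skeletal muscle actin, was 647-fold lower at 7 days but 6.09-fold lower at 6 months. Of the 8 adipocyte markers, all at the floor at 7 days, 7 were lower there; at 6 months 1 of 6 was lower (summed FPKM 2400, 829, 775 and 434 in the order above, none at 0 in any library). Of the 8 tendon markers, 2 were lower at 7 days and 6 at 6 months. The part of these cell types in the Fgf1 values was not tested.

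Fgf2, the other ligand without a secretion signal and a mitogen of fibroblasts, stayed below the floor. Its FPKM was 4.40 in 7-day sham and 1.82 in 7-day tenotomy, with 4.44 and 4.12 at 6 months. The 7-day stump was therefore the low one among libraries that were otherwise close. The plain ratio was 0.413 at 7 days (interval 0.264 to 0.629) and 0.928 at 6 months (0.610 to 1.38). Nudt6, a gene transcribed from the opposite strand, shares 640 exon bases with Fgf2, 9.81% of its annotated exons. It stood at 12.7, 4.16, 8.87 and 4.70 FPKM in the same order of libraries. The library kit keeps strand, but whether the counting used it is not stated in these sources, and without strand, reads of the pair cannot be told apart.

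The ligands of the epithelial Fgfr2 form, Fgf7 and Fgf10, which mesenchymal cells make, stayed within 2-fold in both comparisons. Fgf7 (keratinocyte growth factor) stood at 3.47 FPKM in 7-day sham, 5.05 in 7-day tenotomy, 7.63 in 6-month sham and 5.32 in 6-month tenotomy. The 6-month sham library was the highest and the 7-day sham library the lowest, with the stumps close together between them. Its plain ratios were 1.46 (interval 0.859 to 2.56) and 0.698 (0.415 to 1.16). The deposited locus of Fgf7 spans 293 kb, against 56.5 kb in GENCODE, whose transcript lengths were used for these intervals. Fgf10, which drives limb and lung budding, stood at 1.88 and 2.86 FPKM at 7 days and at 0.635 and 1.04 at 6 months. Both 7-day libraries were above both 6-month libraries. The ratios of 1.52 (0.860 to 2.77) and 1.63 (0.533 to 8.07) had intervals that include 1, the second resting on about 4 and 10 fragments. Skin epithelium markers, for cells that carry the epithelial receptor form, were low throughout, with 3 of 3 at the floor lower at 7 days and 1 of 1 at 6 months: their summed FPKM over 8 genes was 34.0, 11.9, 17.5 and 3.41, and Lor was at 0 in all 4 libraries. Krt14, a basal keratin, stood at 10.4, 2.5, 14 and 0.844 FPKM.

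Fgf9 and Fgf18, both ligands of the mesenchymal receptor forms with roles in cartilage and bone growth, had 7-day values on opposite sides of sham. Fgf9 stood at 2.85 FPKM in 7-day sham, 0.619 in 7-day tenotomy, 2.12 in 6-month sham and 0.418 in 6-month tenotomy. Both sham libraries were above both tenotomy libraries, the same order by operation as for Fgf1 but under the floor. Its plain ratios were 0.218 (interval 0.0811 to 0.524) and 0.198 (0.0312 to 0.620), from about 26 and 7 fragments at 7 days and 13 and 3 at 6 months. With its shortest transcript both intervals include 1.

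Fgf18 stood at 5.41 FPKM in 7-day sham, 10.6 in 7-day tenotomy, 3.12 in 6-month sham and 2.78 in 6-month tenotomy. The 7-day stump was the highest of the 4 libraries, and Fgf18 was the most abundant of the 6 ligands there. Its log2 ratio was 0.85 at 7 days, short of the 2-fold rule, with a plain ratio of 1.96 (interval 0.997 to 4.08) from about 13 and 31 fragments. At 6 months the ratio was 0.890 (0.225 to 3.67). Cartilage markers went both ways: at 7 days 4 of 6 at the floor were higher and 2 lower, and at 6 months none of 5 was higher and 3 were lower. Over the 9 markers summed FPKM was 342, 260, 148 and 67.1, and Matn1, listed at 0 in the other three libraries, stood at 2.28 FPKM in 6-month tenotomy. Acan (aggrecan) was 4.03-fold higher in the 7-day stump. Col11a2, the cartilage marker with the highest FPKM, was 4.04-fold lower there (182 and 44.3 FPKM, sham before tenotomy). The part of cartilage cells in the Fgf18 value was not tested.

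Fgfr1, the main FGF receptor of mesenchymal cells, was the most abundant of the 10 genes in all libraries. It stood at 44.1 FPKM in 7-day sham, 56.8 in 7-day tenotomy, 45.3 in 6-month sham and 35.1 in 6-month tenotomy. The sham libraries were nearly level, and the stumps lay above them at 7 days and below them at 6 months. The plain ratios were 1.29 (interval 1.16 to 1.43, about 573 and 897 fragments) and 0.774 (0.673 to 0.892, about 390 and 409 fragments). Both intervals, on FPKM as deposited, exclude 1, but both differences are well inside 2-fold. The 6-month log2 ratio moved from -0.36 to -0.13 when FPKM was scaled to a common sum without small RNAs, mitochondrial and muscle genes. No interval was worked out on that scaling. Fgfr1 made up 55.4%, 67.9%, 68.8% and 72.7% of the summed FPKM of the 4 receptor genes in the order above.

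Fgfr2, the receptor that in its epithelial form takes Fgf7 and Fgf10, stood at 5.37 FPKM in 7-day sham, 8.96 in 7-day tenotomy, 2.22 in 6-month sham and 5.52 in 6-month tenotomy. The stump was above sham at each age, and the 6-month sham library was the lowest. It was 2.02-fold higher after tenotomy at 6 months (log2 ratio 1.02, just past the rule), and its log2 ratio was 0.65 at 7 days. The plain ratios were 2.48 (interval 1.43 to 4.75, about 16 and 55 fragments) and 1.67 (1.21 to 2.32, about 59 and 120 fragments). With a pseudocount of 5 FPKM the 6-month log2 ratio was 0.54, and Fgfr2 was no longer called. Ctbp2, a gene on the same strand, shares 314 exon bases with the GENCODE form of Fgfr2, 6.14% of its annotated exons. Strand cannot tell apart reads from those bases. Ctbp2 stood at 11.1, 14.9, 8.70 and 11.4 FPKM, also higher in value in each stump, and its part in the Fgfr2 values was not tested. The deposited locus of Fgfr2 is chr7:130162451-130266808 (mm10), whereas the GENCODE gene reaches 133123350. Whether the bases shared with Ctbp2 lie inside the deposited locus was not worked out.

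Fgfr3, a receptor that restrains growth of cartilage, was the least abundant of the 3 member receptor kinases in 3 of the 4 libraries. It stood at 0.554 FPKM in 7-day sham, 1.3 in 7-day tenotomy, 3.2 in 6-month sham and 1.2 in 6-month tenotomy. The stumps were nearly level, between a low 7-day and a higher 6-month sham library. The 6-month plain ratio was 0.376 (interval 0.175 to 0.807, about 23 and 12 fragments), and the 7-day ratio was 2.34 (0.876 to 7.22, about 6 and 17 fragments). The gene overlaps a transcript on the opposite strand, G630022F23Rik, over 9.93% of its exon bases.

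Fgfrl1, whose product binds FGF ligands and heparan sulfate but carries no kinase, stood at 29.6 FPKM in 7-day sham, 16.6 in 7-day tenotomy, 15.1 in 6-month sham and 6.42 in 6-month tenotomy. Each stump was below its sham, and both 6-month libraries were below both 7-day libraries. It was 2.18-fold lower after tenotomy at 6 months (log2 ratio -1.12), and its log2 ratio was -0.80 at 7 days. The plain ratios were 0.424 (interval 0.270 to 0.668, about 57 and 33 fragments) and 0.561 (0.438 to 0.713, about 169 and 115 fragments). The 6-month call was lost, at a log2 ratio of -0.82, with a pseudocount of 5 FPKM, and at -0.91 when FPKM was scaled to a common sum without small RNAs, mitochondrial and muscle genes. The tendon markers were also lower in 6-month tenotomy, 6 of 8 past 2-fold, and their part in the Fgfrl1 value was not tested. Its share of the receptor sum was 37.2% and 19.9% at 7 days and 23.0% and 13.3% at 6 months, sham before tenotomy. The deposited locus is chr5:108694229-108706950 (mm10).

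**Figure D3:**
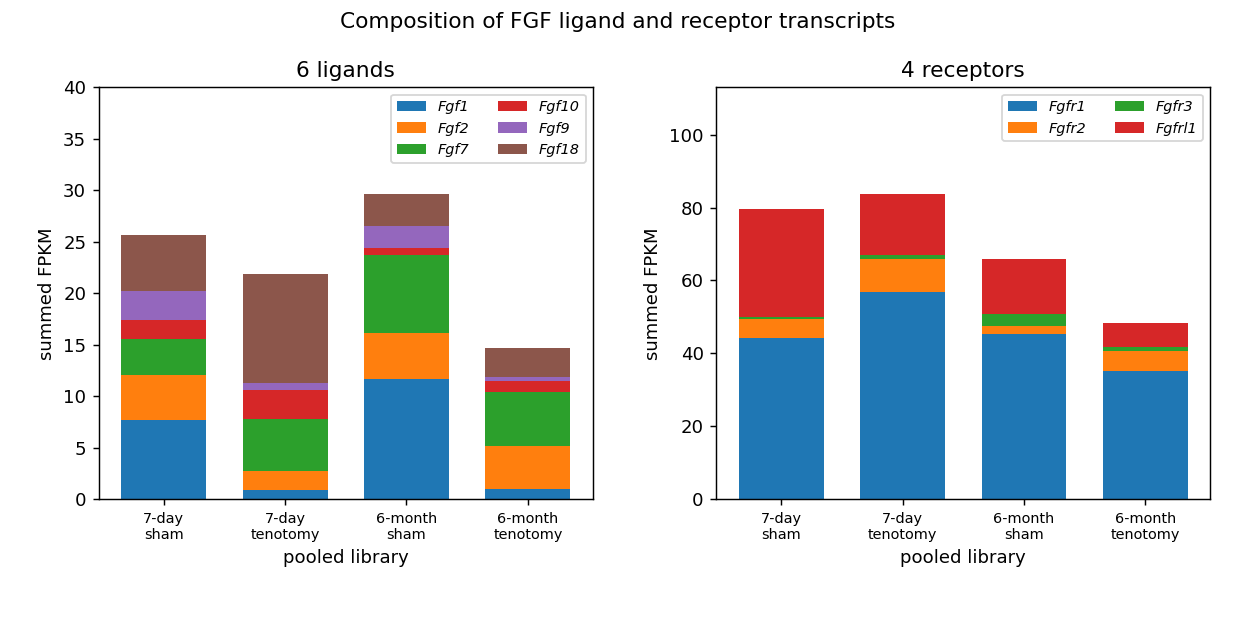
Summed FPKM of the 6 ligand genes (left) and the 4 receptor genes (right) in each pooled library, bars stacked by gene from 0. Ligand sums are 25.7, 21.8, 29.6 and 14.7 FPKM in the order shown, and receptor sums 79.7, 83.7, 65.8 and 48.2 FPKM.

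The make-up of the ligand transcripts differed between operations, as did their sum at 6 months (29.6 and 14.7 FPKM, against 25.7 and 21.8 at 7 days). Fgf1 made up 29.8% of the ligand sum in 7-day sham and 4.14% in 7-day tenotomy, and 39.4% and 6.80% at 6 months. In the 7-day stump Fgf18 made up 48.5%, Fgf7 23.1% and Fgf10 13.1%. In the 6-month stump Fgf7 made up 36.3%, Fgf2 28.1% and Fgf18 18.9%. Among neighbours in the order, Fgf2 and Fgf7 in 7-day sham (4.40 and 3.47 FPKM) and Fgf10 and Fgf1 in 6-month tenotomy (1.04 and 0.999 FPKM) are close, and no spread over animals was measured with which to separate them.

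Levels at the different ages come from separate tables whose scaling is not stated in these sources, and the median gene at the floor was 0.25 higher on the log2 scale at 7 days than at 6 months, in sham and in tenotomy libraries alike. Between the sham libraries no member passed 2-fold at the floor, where 13.1% of 9323 genes were higher at 7 days and 6.67% lower. Fgfr2 (log2 difference 0.98) and Fgfrl1 (0.92) had the highest values toward 7 days, and Fgf7 (-0.95) toward 6 months among members at the floor; relative to the median gene these are 0.74, 0.68 and -1.20. Between the stumps 2 members were higher at 7 days, Fgf18 (3.07-fold, log2 1.62, and 1.37 relative to the median) and Fgfrl1 (2.38-fold, log2 1.25, and 1.0 relative to the median), beside 10.1% of 9201 genes; no member was lower at 7 days, where 6.61% of genes were. The response to tenotomy, as the 7-day log2 ratio minus the 6-month one, differed by at least 1 for none of the 6 members at the floor. With a pseudocount of 0.1 FPKM it did so for 2, Fgf18 (1.12) and Fgf7 (1.04), where 7.02% of all genes did so upward and 11.1% downward. With 1 FPKM added, the shares over all genes were 5.64% upward and 8.82% downward of 10077.

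For the 6 members that reached 5 FPKM, the genes with the nearest pattern over the 4 libraries were found by the Euclidean distance between centred log2(FPKM + 1) values among 9623 genes. With 4 points many genes lie close, and the distances describe likeness of levels only. For Fgf1 they were Slurp1, Homer2 and Limch1, at distances of 0.27, 0.27 and 0.28; Homer2 stood at 6.98, 1.22, 10.8 and 1.07 FPKM, while Slurp1 was listed at 0 in both stumps. For Fgf18 they were Zdhhc9, B3gnt3 and Jam3 (0.08 to 0.13), with Zdhhc9 at 10.9, 20.1, 6.16 and 6.04 FPKM. For Fgf7 they were Slc25a30, Pnpla7 and Phlda1 (0.09 each). For Fgfr1 they were Cct2, Eif2d and Ppp1r13b (0.03 to 0.04), and for Fgfr2 Gnai2, Slc8a1 and Ralgds (all 0.06). For Fgfrl1 they were Grhpr (0.06), Pik3c2b (0.17) and Scara5 (0.18), with Scara5, a scavenger receptor gene of fibroblasts, at 30.9, 16.1, 15.0 and 5.5 FPKM.

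**Figure D4:**
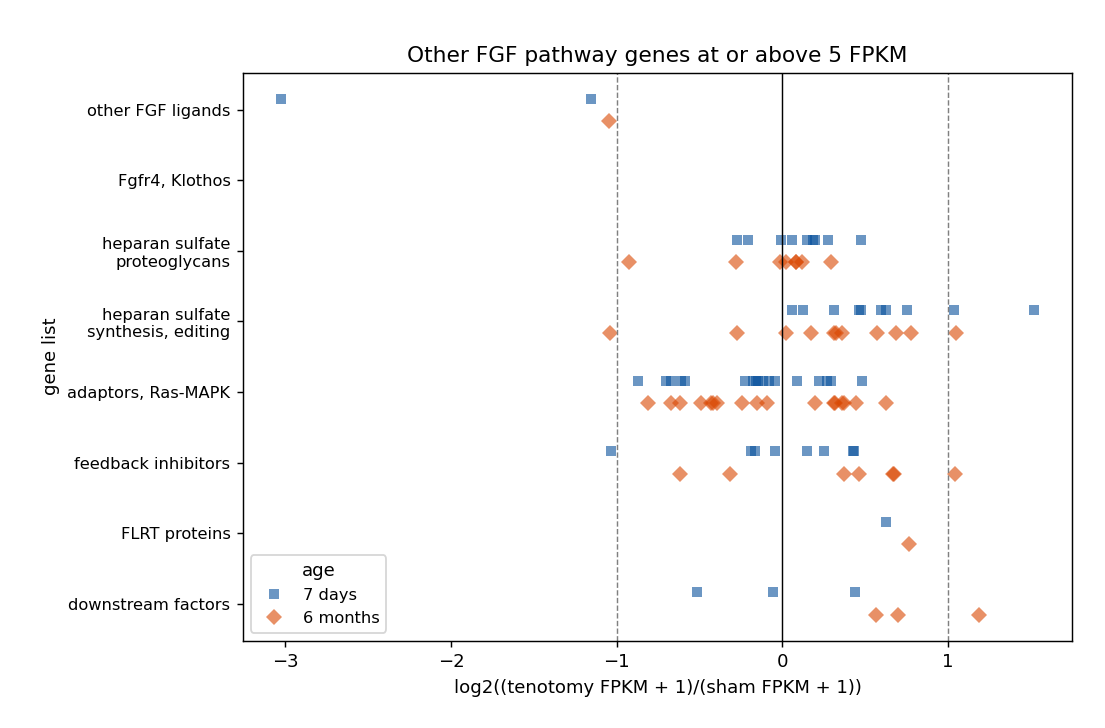
Log2 ratio of tenotomy over sham (with 1 FPKM added) for other FGF pathway genes at or above 5 FPKM, by list, at 7 days (blue squares) and 6 months (orange diamonds); each point is 1 gene and dashed lines mark 2-fold. The Fgfr4 and Klotho list has no gene at the floor, and Sulf2 is the point farthest right, at 1.52.

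Most other genes of the pathway lay within 2-fold. Of 85 found in 8 lists, 50 reached the floor at 7 days, of which 2 were higher and 3 lower; at 6 months 48 did, of which 3 were higher and 2 lower. Those are 4% and 6% at 7 days and 6.25% and 4.17% at 6 months, next to the shares over all genes given above. The lists were written with earlier results of these data known.

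Of the 16 other ligand genes, 7 were listed at 0 in all libraries and 13 never reached 5 FPKM. Fgf6, a ligand of developing muscle, stood at 7.16 FPKM in 7-day sham and was listed at 0 in 7-day tenotomy, with 1.61 and 0.795 FPKM at 6 months. The authors' deposited table calls Fgf6 significant at 7 days (q-value 0.00832), and calls none of the members so. The authors' calls for the other listed ligands and for Fgfr4 are not given here. The intracellular FGF-like genes Fgf14 (5.12, 1.74, 4.02 and 1.1 FPKM) and Fgf13 (3.25, 2.12, 7.74 and 3.23 FPKM) were lower after tenotomy, Fgf14 at 7 days by 2.23-fold and Fgf13 at 6 months by 2.07-fold. The muscle markers were lower in the same libraries, and their part in these values was not tested. The receptor gene Fgfr4 (2.66, 0.827, 0.754 and 0.978 FPKM) and the co-receptor gene Klb (4.5, 1.32, 0 and 0 FPKM) stayed below the floor.

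Genes for the heparan sulfate that FGF ligands need were measured in 2 lists, of synthesis and editing and of proteoglycans. Of 12 genes of heparan sulfate synthesis and editing, 10 reached the floor at 7 days, 2 of them higher and none lower (median log2 ratio 0.53); at 6 months 11 did, 1 higher and 1 lower (median 0.32). Sulf2, an extracellular sulfatase that removes sulfate groups used in ligand binding, stood at 52.8 FPKM in 7-day sham, 153 in 7-day tenotomy, 16.5 in 6-month sham and 35.1 in 6-month tenotomy. Each stump was thus above its sham, by 2.87-fold at 7 days and 2.06-fold at 6 months, and both 7-day libraries were above both 6-month ones. Activated fibroblast markers were higher in the same libraries, 8 of 9 at 7 days and 6 of 9 at 6 months (summed FPKM 1248, 4683, 583 and 1691, none at 0 in any library), and their part in the Sulf2 values was not tested. Hs2st1, a sulfotransferase that adds groups FGF ligands bind, was 2.05-fold higher at 7 days (8.68 and 18.9 FPKM) and stood at 6.51 and 11.9 FPKM at 6 months. Hs3st1, another sulfotransferase, stood at 1.75 and 4.3 FPKM at 7 days and was 2.05-fold lower at 6 months (5.6 and 2.21 FPKM). None of 9 heparan sulfate proteoglycan genes at the floor at 7 days, or of 8 at 6 months, passed 2-fold (medians 0.15 and 0.05). The perlecan gene Hspg2 stood at 139, 158, 74.9 and 81.4 FPKM and the glypican gene Gpc1 at 55.3, 63.6, 101 and 52.8 FPKM.

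Inside the cell, none of 17 adaptor and Ras-MAPK genes at the floor passed 2-fold at either age (medians -0.15 at both). Ptpn11, the phosphatase that couples receptors to Ras, stood at 48.5, 30.1, 43.4 and 26.9 FPKM, and the kinase gene Map2k2 at 36.8, 23.8, 44.7 and 28.8 FPKM. Of the feedback inhibitors, 1 of 8 at the floor was lower at 7 days and 1 of 7 higher at 6 months. Spry4, a Sprouty inhibitor induced by FGF signalling, was 2.05-fold lower at 7 days (7.32 and 3.06 FPKM) and stood at 2.28 and 3.19 FPKM at 6 months. Cbl, a ubiquitin ligase that removes active receptors, stood at 12.7 and 14.2 FPKM at 7 days and was 2.05-fold higher at 6 months (6.26 and 13.9 FPKM). Of 8 downstream factors and targets, 3 reached the floor at each age, and 1, Myc, was higher at 6 months (4.04 and 10.5 FPKM, 2.28-fold), after 5.25 and 7.48 FPKM at 7 days. Flrt2, a membrane partner of FGF receptors, stood at 10.9, 17.3, 4.76 and 8.78 FPKM, and Flrt3, below the floor, at 1.73, 1.69, 0.44 and 0.93 FPKM. Macrophages and vessels were measured by their own markers: 6 of 10 macrophage markers were higher at 7 days and 9 of 10 at 6 months (summed FPKM 410, 955, 496 and 1706), and 2 of 8 endothelial markers were higher at each age (191, 324, 94.8 and 153). No marker of either list was at 0 in a library, and their part in the pathway values was not tested.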

How the data were processed

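Expression was measured by RNA sequencing of 4 pooled Achilles tendon libraries, 1 per group. Per the labels' protocols, RNA integrity values were below 8, and ribosomal RNA was depleted before strand-specific library preparation. Cufflinks and TopHat and the assembly mm10 are named in the submitters' processing notes; versions, settings and annotation are not stated there. The authors deposited 1 table per age, whose expression values were taken as FPKM from its layout. The p-values, q-values and a test score in the authors' deposited tables were copied or left unused; the test behind them is not stated.

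Ratios were computed over whole tables with 1 FPKM added and a floor of 5 FPKM, with no test. Depth came from FPKM steps of genes with 1 GENCODE M21 transcript of at least 800 bases: 75.2% to 79.5% of 438 to 477 low values were whole fragments within 0.1, taking 200 bases off each length. Members, lists, motifs and rules were chosen with earlier results of these data known. Named were all members, up to 4 genes of each pathway list past 2-fold with the largest log2 ratio (otherwise the 2 highest), the highest markers, and the 3 nearest patterns; Scx, Tnmd, Lor, Matn1, Nudt6, Ctbp2 and G630022F23Rik were named outside that rule after their values were seen. Of the listed genes, 2 were matched by older symbols. Alternatives changed the pseudocount, floor and scaling or took the authors' call. The tools were matplotlib 3.10.9, SciPy 1.17.1, pandas 2.3.3, NumPy 2.4.6 and Python 3.11.15.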

Additional observations from a re-analysis of the deposited data

Results flagged for a closer look

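For 4 of the 10 members the difference between tenotomy and sham had opposite signs at the 2 ages, with 1 pool behind each value, and the difference between ages was not tested. Among genes at the floor 3 of 6 members had opposite signs, as did 28.4% of all 10077 genes. The log2 ratio at 7 days less that at 6 months was 1.49 for Fgfr3, which was below 5 FPKM in every library. It was 0.98 for Fgf18, whose 6-month ratio turned positive (0.05) when FPKM was scaled to a common sum without small RNAs, mitochondrial and muscle genes. It was 0.89 for Fgf7 and 0.72 for Fgfr1.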

How the results depend on the processing

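Of the 10 members, all kept the sign of their 7-day log2 ratio under the 5 alternatives of pseudocount and scaling, and 8 kept that of the 6-month ratio; Fgf2 and Fgf18, near 0 there, did not. Fgf1 ranged from -2.95 to -1.10 at 7 days and from -3.42 to -1.48 at 6 months. The count of lower members at 7 days was 1, but 2 without a floor or at 1 FPKM, where Fgf9 joined, and 0 with a floor of 20 FPKM or by the authors' call. The count of higher members at 6 months was 1, but 0 with a pseudocount of 5 FPKM, a floor of 20 FPKM or the authors' call. The count of lower members at 6 months was 2, but 3 without a floor or at 1 FPKM, where Fgf9 joined, 1 with a pseudocount of 5 FPKM or a common sum without small RNAs, mitochondrial and muscle genes, and 0 with a floor of 20 FPKM or the authors' call. The count of members at the floor whose log2 ratios differed by at least 1 between ages was 0, but 2 with a pseudocount of 0.1 FPKM. Fewer genes are tested at the 20 FPKM floor. The authors called 0 genes in all at 6 months, so that their count of 0 members there was fixed. The common sum moved the median gene at 6 months to 0.22 and the calls over all genes from 866 higher and 1067 lower to 1359 and 710. No paired analysis was possible because each group is 1 pool. Depth limits the low ligands most, such as Fgf9 with about 3 fragments in 6-month tenotomy.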
